A study of Rattus norvegicus with 15 samples.

Results

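The genes described here are the cytochromes P450 of rat lung, taken as the 71 rows of a table of 22250 genes whose symbol begins with Cyp, a family number and a subfamily letter. They fell into 16 families. RNA sequencing of whole lung had been done in 15 libraries, in 3 groups of 5. SJY rats were wild type and received lipopolysaccharide (LPS, a bacterial cell wall component that injures the lung) through the trachea and Sang Ju Yin, a herbal formula, by stomach tube. ALI rats (acute lung injury) were wild type and received the tracheal LPS alone. Control rats were wild type normal controls, and the labels mention neither a tracheal nor an intragastric sham treatment for them. Strain, age, sex, dose and time after LPS are not given in the labels, nor is it said whether a library came from 1 animal or a pool. Values are FPKM (fragments per kilobase of transcript, scaled to the mapped fragments of the library), a level per length that allows genes to be compared with each other. Libraries keep the numbers of their labels, and values of single libraries are always listed in the order SJY 1, 3, 4, 5 and 6, then ALI 1 to 5, then control 4 to 8.

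Cytochromes P450 are heme enzymes. Most insert an oxygen atom into their substrate, taking electrons from the reductase encoded by Por in the endoplasmic reticulum or from ferredoxin in mitochondria. Families 1 to 3 oxidise drugs, pollutants and steroids, family 4 oxidises fatty acids and leukotrienes, and families such as 7, 27, 39 and 46 act on sterols. In rodent lung they are best known from the club cells of the small airways and from type II cells of the alveoli, where they turn inhaled compounds such as naphthalene into reactive products. Many P450 genes are known to be repressed during inflammation, as established mainly in liver.

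ALI 1 stood apart from the other libraries. Mitochondrial genes held 37.7% of its summed FPKM, while this share lay between 10.4% and 17.1% in SJY, 8.31% and 14.1% in ALI 2 to 5, and 5.19% and 9.62% in control. Because FPKM is relative, a rise of some transcripts lowers the values of all others. Changes of a P450 call without ALI 1 are given, and so are some, but not all, of the other estimates without it. Relative depth was estimated from the most common ratio of the lowest values between each library and control 4. It lay between 0.946 and 1.10 times that of control 4. Only ratios near an even depth were searched, so a larger difference could not have been seen. Absolute read numbers are unknown. Airway and alveolar identity was present throughout: the club cell secretoglobin Scgb1a1 averaged 10830 FPKM in SJY, 6833 FPKM in ALI and 13340 FPKM in control, and the surfactant gene Sftpc averaged 12030, 8507 and 12610 FPKM in the same groups. The liver marker Alb averaged at most 0.201 FPKM in any group. In bulk tissue, fewer cells of a type and less RNA per cell cannot be told apart.

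Most P450 genes were listed at low or no level in lung. Of the 71, 27 from 10 families reached 1 FPKM in at least 5 of the 15 libraries and were tested. Of the 44 others, 9 were listed at 0 in every library, 30 stayed below 1 FPKM throughout, and 5 (Cyp2ab1, Cyp2r1, Cyp4a1, Cyp4f39 and Cyp27b1) reached 1 FPKM in 1 to 4 libraries. A listed 0 need not mean absence, since the endothelial gene Cldn5 was also listed at 0 in all 15 libraries. Cyp2b2, Cyp2d3 and Cyp46a1 lay just inside the limit with 5 libraries each and highest values of 4.18, 2.72 and 2.24 FPKM. Cyp2r1 and Cyp4a1 lay just outside it with 4 libraries each and highest values of 1.31 and 1.61 FPKM. Family 2 had the most tested genes (13 of 31), followed by family 4 (5 of 16), family 1 (2 of 3) and 1 gene each in families 3, 7, 20, 26, 27, 39 and 46. The steroid-forming genes of families 11, 17, 19 and 21, the bile acid genes Cyp7a1 and Cyp8b1, and the vitamin D gene Cyp24a1 did not pass the limit, and neither did Cyp2c11 or Cyp3a23/3a1, well known from rat liver. Each of the 27 tested genes reached 1 FPKM in libraries of more than 1 group, so no gene entered the test through a single group. Cyp46a1 came closest, with 4 control libraries, 1 SJY library and 0 ALI libraries at 1 FPKM. Its fall in ALI is therefore not independent of the limit.

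Expression was concentrated in a pair of genes. Cyp4b1 and Cyp2b1 averaged 189 and 182 FPKM over all libraries, and no other P450 gene averaged 100 FPKM. Together they held 56.3 ± 2.89% of the summed FPKM of the 71 genes in SJY, 49.8 ± 4.87% in ALI and 63.6 ± 4.25% in control (SD, n = 5 each). The sum over all 71 genes was 526 ± 33.9 FPKM in SJY, 458 ± 164 FPKM in ALI and 922 ± 92.3 FPKM in control. The highest ALI library had 620.5 FPKM and the lowest control library 775 FPKM, so the LPS-treated and normal lungs did not overlap. ALI 1 had 195 FPKM, and the other ALI libraries had at least 417 FPKM. Families 2 and 4 both had lower sums. In family 4 the only tested gene called lower against control was Cyp4b1, while Cyp4f18 was called higher. Family 2 summed to 222 ± 28.0 FPKM in SJY, 191 ± 108 FPKM in ALI and 468 ± 68.8 FPKM in control, and family 4 to 218.5 ± 10.01, 186 ± 50.8 and 381 ± 37.0 FPKM. Families 1, 7 and 26 had higher means in both LPS-treated groups. Family 1 summed to 14.2 ± 1.60 FPKM in SJY, 19.2 ± 4.90 FPKM in ALI and 10.9 ± 5.47 FPKM in control, with overlapping groups. Family 7 summed to 7.74 ± 0.409 FPKM in SJY, 8.80 ± 5.28 FPKM in ALI and 1.69 ± 0.490 FPKM in control, and family 26 to 16.1 ± 5.36, 14.6 ± 10.96 and 5.82 ± 1.20 FPKM. In family 26 ALI 1 had 0.646 FPKM, below all controls, and ALI 2 to 5 had 9.59 to 27.4 FPKM, above them. These sums are descriptions without a test.

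**Figure D1:**
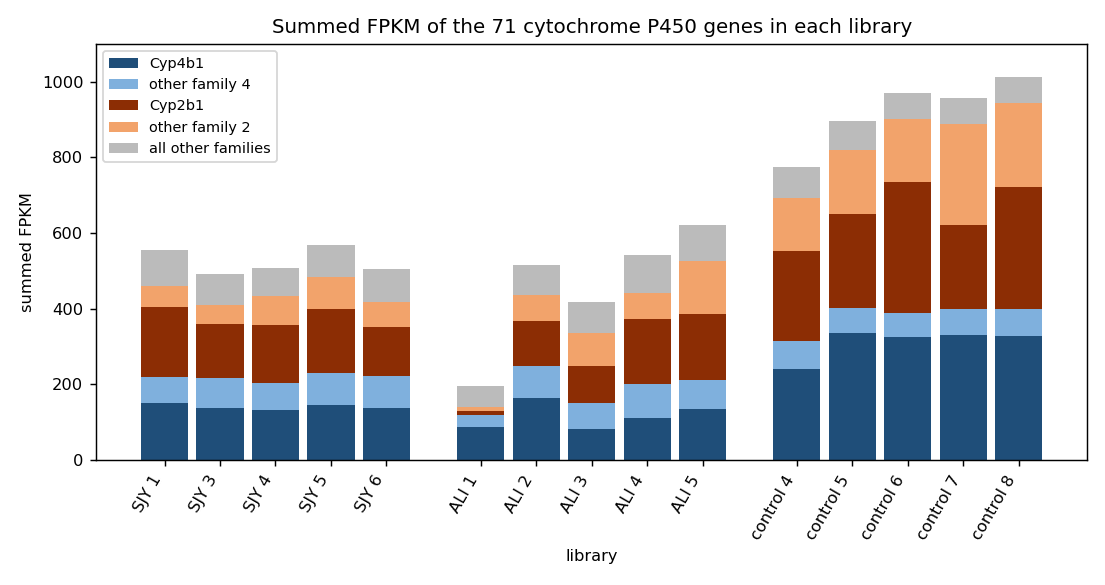
Stacked bars give the summed FPKM of the 71 cytochrome P450 genes in each library, split into Cyp4b1, the rest of family 4, Cyp2b1, the rest of family 2 and all other families. SJY bars lie between 492 and 568 FPKM, ALI bars between 195 and 620.5 FPKM and control bars between 775 and 1012 FPKM.

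Promoter sequence was available for 23 of the 27 tested genes, in RefSeq's GRCr8 annotation, as the 250 bases before the annotated start. The last 150 of these bases are shown for the abundant pair Cyp4b1 and Cyp2b1, which were lower in LPS-treated lung, and for Cyp4f18 and Cyp1b1, which were higher, to set side by side what stands in front of genes that moved in opposite directions. Capitals mark any match to 1 of 6 motifs: the xenobiotic response element core GCGTG bound by the aryl hydrocarbon receptor, a C/EBP motif TTNNGNAA, the NF-kB motif, a forkhead motif TGTTTAC and the GC box CCGCCC, each on both strands, and the TATA box TATAAA on the gene's strand. Matched motifs do not overlap in the windows shown.
Cyp4b1, chr5:134393117-134393266, minus strand: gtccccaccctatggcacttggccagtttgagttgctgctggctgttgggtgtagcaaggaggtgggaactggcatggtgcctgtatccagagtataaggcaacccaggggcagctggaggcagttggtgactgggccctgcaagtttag
Cyp2b1, chr1:90645969-90646118, plus strand: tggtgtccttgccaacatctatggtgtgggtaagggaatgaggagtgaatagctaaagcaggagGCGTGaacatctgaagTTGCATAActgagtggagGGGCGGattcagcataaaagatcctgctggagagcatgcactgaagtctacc
Cyp4f18, chr16:17797408-17797557, plus strand: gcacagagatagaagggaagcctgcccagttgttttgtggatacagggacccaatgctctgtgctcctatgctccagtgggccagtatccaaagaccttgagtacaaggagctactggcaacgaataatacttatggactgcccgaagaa
Cyp1b1, chr6:21094415-21094564, plus strand: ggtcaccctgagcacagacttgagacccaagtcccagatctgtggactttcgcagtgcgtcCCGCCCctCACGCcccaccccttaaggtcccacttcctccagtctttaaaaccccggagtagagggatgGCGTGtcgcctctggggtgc

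The Cyp1b1 window held GCGTG once on each strand and a GC box, the Cyp2b1 window held GCGTG, a C/EBP match and a GC box, and the Cyp4b1 and Cyp4f18 windows held no match. Over the full 250 bases, GCGTG stood in 9 of the 23 P450 promoters and in 25.9% of all 33469 promoters. The C/EBP motif stood in 11 of 23 and in 37.2% of all, the GC box in 11 of 23 and in 30.5% of all, and the forkhead motif in 2 of 23 and in 3.22% of all. TATAAA stood in 2 of 23 (Cyp2a1 and Cyp2e1) and in 8.06% of all, and the NF-kB motif in 0 of 23 and in 0.314% of all. A match is a description of the letters and not a shown binding site, and its absence concerns these windows alone.

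Setting ALI beside control addresses how LPS in the airway altered P450 expression. In ALI, 8 of the 27 tested genes fell (Cyp2f4, Cyp2a1, Cyp2b1, Cyp3a9, Cyp4b1, Cyp2s1, Cyp2c23 and Cyp46a1) and 3 rose (Cyp4f18, Cyp7b1 and Cyp1b1). The calls are from limma, fitted on log2(FPKM + 1) over 13457 genes, with a Benjamini-Hochberg adjusted p under 0.05 and no minimum fold. That is 29.6% and 11.1% of the P450 genes, against 9.56% and 8.02% of all tested genes, of which 17.6% were called in all. The median log2 change was −0.56 over the 27 genes and −0.12 over all genes. After median-of-ratios scaling between libraries these medians were −0.47 and −0.01, with the same numbers of P450 calls. Without ALI 1 they were −0.22 and −0.02, and 8 P450 genes fell and 4 rose (29.6% and 14.8%, against 7.87% and 9.10% of all tested genes), with Cyp2d4 and Cyp26b1 gained and Cyp46a1 lost. The groups did not overlap in 9 of the 27 genes (6 below and 3 above control), against 12.9% of all tested genes (6.73% below and 6.17% above). All changes below are on the log2(FPKM + 1) scale, which understates those of low genes.

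**Figure D2:**
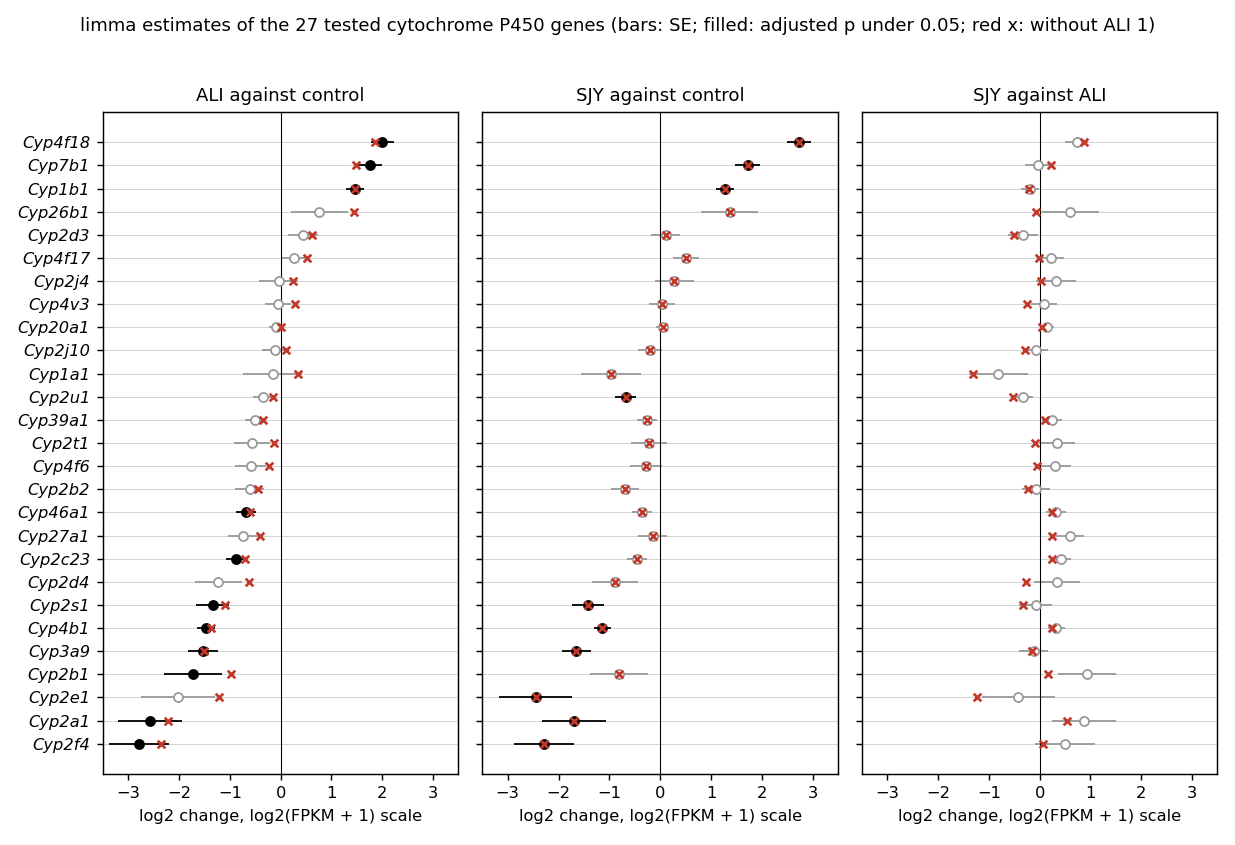
Points give limma's log2 change on the log2(FPKM + 1) scale for the 27 tested genes in ALI against control, SJY against control and SJY against ALI, with bars for the standard error, filled points at an adjusted p under 0.05 and red crosses for the estimate without ALI 1. In ALI against control 8 genes are filled on the left and 3 on the right, in SJY against control 7 and 3, and in SJY against ALI 0.

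Cyp4b1 (ENSRNOG00000055078), a fatty acid hydroxylase that in rodents also activates the lung toxin 4-ipomeanol, had the most certain fall. It stood at 152, 136, 131, 146 and 137 FPKM in SJY, at 85.9, 165, 80.4, 112 and 133 FPKM in ALI and at 240.5, 335, 324, 331 and 328 FPKM in control. Every SJY and ALI library lay below every control library, control 4 was the lowest control, and ALI 1 was not the lowest ALI library. The log2 change of ALI against control was −1.47 ± 0.17 (SE, adjusted p = 4.57e-05 by limma), and −1.38 ± 0.16 without ALI 1.

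Cyp2b1 (ENSRNOG00000033680), phenobarbital-inducible in rat liver and constitutively expressed in rat lung, was the other abundant gene. Its level was 186, 142, 153, 168 and 129 FPKM in SJY, 9.02, 121, 97.0, 174 and 174 FPKM in ALI and 238, 250.1, 347, 219.9 and 322 FPKM in control. The SJY and ALI libraries all lay below the controls, and ALI 1 was far below the rest of its group. The size of the fall rested on that library. The log2 change was −1.73 ± 0.57 with it (SE, adjusted p = 0.0462 by limma) and −0.98 ± 0.18 without it (adjusted p = 0.00215). The call was lost, with an adjusted p of up to 0.0947, when any SJY or control library, ALI 2 or ALI 3 was left out, 12 libraries in all. The close paralog Cyp2b2 averaged 0.560 FPKM in SJY, 0.699 FPKM in ALI and 1.71 FPKM in control and did not pass the test. Reads of such near-identical genes may have been split between them by the authors' counting, which makes the values of the Cyp2a, Cyp2b, Cyp2c, Cyp2d and Cyp4f genes uncertain to that extent.

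Cyp2f4, Cyp2a1 and Cyp2s1 lie near Cyp2b1 in a cluster of 15 P450 genes in the RefSeq order of the rat assembly GRCr8, which runs from Cyp2s1 through the Cyp2b, Cyp2g and Cyp2a genes to Cyp2f4 and Cyp2t1. The authors' values use the older build Rnor_6.0, so no gene coordinates are given. The paralogs Cyp2a2 and Cyp2a3 of that cluster had no row under those symbols in the authors' values, so they could not be analysed. Of the cluster, 6 genes were tested, and 4 of these fell in ALI, against 29.6% of the 27 tested P450 genes and 9.56% of all tested genes. The other two, Cyp2b2 and Cyp2t1, did not pass, and Cyp2t1 averaged 9.001 FPKM in SJY, 8.04 FPKM in ALI and 10.9 FPKM in control.

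Cyp2f4 (ENSRNOG00000032805), the club cell enzyme that epoxidises naphthalene, had the largest log2 decrease of the 27 genes. Its values were 5.69, 2.91, 18.9, 15.1 and 7.82 FPKM in SJY, 0.975, 3.80, 15.5, 3.41 and 17.9 FPKM in ALI and 30.9, 25.4, 39.5, 94.7 and 60.7 FPKM in control. No SJY or ALI library reached the lowest control, and control 7 and control 8 were the highest of all. The log2 change of ALI against control was −2.78 ± 0.59 (SE, adjusted p = 0.0053 by limma), and −2.35 ± 0.58 without ALI 1.

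The same controls were highest for Cyp2a1 and Cyp2s1. Cyp2a1 (ENSRNOG00000020817), a testosterone hydroxylase in rat liver, stood at 4.86, 0.627, 9.76, 4.93 and 3.32 FPKM in SJY, 0, 0.641, 6.51, 0.437 and 6.08 FPKM in ALI and 10.1, 7.54, 9.88, 41.6 and 20.04 FPKM in control. The ALI libraries lay below the controls, while SJY 4 passed the lowest of them. Its log2 change in ALI was −2.57 ± 0.63 (SE, adjusted p = 0.0119 by limma). Cyp2s1 (ENSRNOG00000020743), found in epithelia outside the liver, had 5.85, 8.14, 13.4, 13.0 and 9.95 FPKM in SJY, 4.66, 8.90, 21.2, 7.40 and 16.5 FPKM in ALI and 20.9, 24.5, 23.7, 38.4 and 34.0 FPKM in control. Here ALI 3 just exceeded the lowest control and the remaining ALI libraries did not. The log2 change in ALI was −1.34 ± 0.32 (SE, adjusted p = 0.0116 by limma).

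Markers of epithelial cell types were read beside these genes, and the type I list had most of its members called. The summed level of 8 club and secretory airway markers ranged over 7867 to 13520 FPKM in SJY, 5390 to 9251 FPKM in ALI and 10920 to 17110 FPKM in control. Of these markers 1 rose in ALI, Pon1, and 1 fell, Scgb1a1, with a log2 change of −0.97 ± 0.19 (adjusted p = 0.00273 by limma), against 8.02% of all genes higher and 9.56% lower, and the median log2 change of the 8 was 1.0. Scgb1a1 made up most of the sum in every library. Bpifa1, Bpifb1, Muc5b and Scgb3a1, none of them called, were highest in ALI 3, at 253, 176, 60.6 and 305 FPKM. The median thus leans on that library. Of 8 alveolar type I markers 8 fell in ALI, and their sum was 1592 to 2557 FPKM in SJY, 672 to 2175 FPKM in ALI and 3034 to 4241 FPKM in control. Without ALI 1, 7 of the 8 fell and the lowest ALI sum was 1300.0 FPKM. Of 8 type II markers 2 fell, with sums of 17780 to 20280 FPKM in SJY, 6106 to 21100 FPKM in ALI and 16530 to 25270 FPKM in control, overlapping between ALI and control, and the lowest ALI sum was 14010 FPKM without ALI 1. Of 5 tested ciliated cell markers 2 fell, with sums of 374 to 459 FPKM in SJY, 203 to 379 FPKM in ALI and 444 to 523 FPKM in control, and 1 fell without ALI 1. None of the matched markers of these 4 lists was at 0 in all libraries, and their part in the fall of the P450 genes was not tested.

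Cyp2c23, Cyp3a9 and Cyp46a1 also fell, from lower levels. Cyp2c23 (ENSRNOG00000013291), an arachidonic acid epoxygenase known from rat kidney, had 5.56, 4.67, 3.88, 4.71 and 3.93 FPKM in SJY, 1.51, 4.20, 2.99, 2.86 and 4.86 FPKM in ALI and 5.54, 6.43, 5.94, 6.76 and 8.42 FPKM in control. ALI lay wholly below control, and SJY 1 lay just above the lowest control. The log2 change in ALI was −0.88 ± 0.20 (SE, adjusted p = 0.00812 by limma).

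Cyp3a9 (ENSRNOG00000046643), the tested gene of the steroid- and drug-oxidising family 3, had 1.22, 1.02, 0.986, 1.41 and 1.52 FPKM in SJY, 1.18, 0.656, 0.601, 4.39 and 1.59 FPKM in ALI and 4.09, 5.26, 4.57, 8.24 and 9.04 FPKM in control. ALI 4 alone among the LPS-treated lungs reached the control range. Its log2 change in ALI was −1.53 ± 0.29 (SE, adjusted p = 0.00245 by limma), with −1.50 ± 0.31 without ALI 1. Cyp46a1 (ENSRNOG00000007147), cholesterol 24-hydroxylase, was near the limit of 1 FPKM with 0.778, 0.739, 0.961, 1.54 and 0.722 FPKM in SJY, 0.278, 0.886, 0.623, 0.401 and 0.619 FPKM in ALI and 1.32, 2.24, 0.554, 2.12 and 1.56 FPKM in control. The groups overlapped through control 6. Its call (log2 change −0.68 ± 0.20 SE, adjusted p = 0.0278 by limma) was lost without ALI 1, ALI 4, control 5, control 7 or control 8, with an adjusted p of up to 0.0766.

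Cyp2e1 (ENSRNOG00000012458), the ethanol-inducible form, was lower in most treated lungs but was not called in ALI. It had 7.73, 3.51, 7.86, 16.2 and 7.90 FPKM in SJY, 0.224, 14.8, 12.2, 13.4 and 61.9 FPKM in ALI and 29.7, 51.1, 49.5, 47.5 and 64.8 FPKM in control. ALI 5 lay within the control range while the other ALI libraries and all SJY libraries lay below it. The log2 change in ALI was −2.02 ± 0.72 (SE, adjusted p = 0.0633 by limma). Without ALI 1, at 0.224 FPKM, it was −1.21 ± 0.44 (adjusted p = 0.0771), and without ALI 5 the call was made (adjusted p = 0.0088). Cyp2d4 was a similar case. It averaged 8.70 ± 0.875 FPKM in SJY, 8.67 ± 4.76 FPKM in ALI and 17.3 ± 4.38 FPKM in control (SD, n = 5 each), with ALI 1 at 0.423 FPKM. ALI and control did not overlap, and the log2 change in ALI was −1.23 ± 0.46 with ALI 1 (SE, adjusted p = 0.0744 by limma) and −0.62 ± 0.16 without it (adjusted p = 0.0138).

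**Figure D3:**
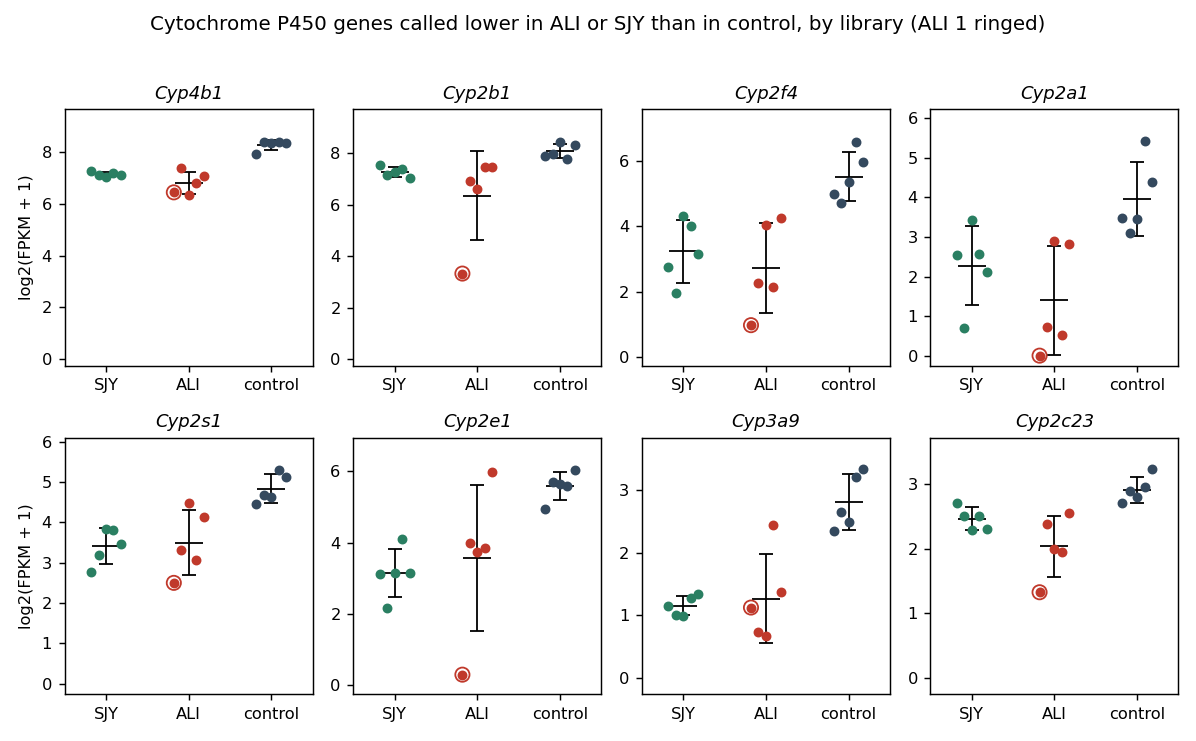
Each dot is a library, on a log2(FPKM + 1) axis that differs between panels, with SJY, ALI and control from left to right, black marks for the group mean and SD on that scale, and a ring around ALI 1. Cyp4b1, Cyp2b1, Cyp2f4 and Cyp2a1 had every ALI library below every control library, and Cyp2e1 had ALI 5 at 61.9 FPKM within the control range.

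The 3 genes that rose in ALI have substrates among eicosanoids, oxysterols and aromatic compounds. Their share of the tested P450 genes, 11.1%, was near the 8.02% of all tested genes that rose. Cyp4f18 (ENSRNOG00000015751), which in mouse oxidises the chemoattractant leukotriene B4 in neutrophils, had 14.5, 14.2, 12.6, 11.2 and 18.9 FPKM in SJY, 12.9, 9.87, 6.29, 9.83 and 4.23 FPKM in ALI and 1.43, 0.995, 1.04, 1.73 and 1.25 FPKM in control. All treated lungs lay above all controls, and every SJY library lay above ALI 2 to 5, while ALI 1 lay above SJY 4 and SJY 5. The log2 change in ALI was 2.0 ± 0.23 (SE, adjusted p = 3.95e-05 by limma). Neutrophil markers moved with it, as 7 of 8 rose in ALI, against 8.02% of all tested genes. Their summed level was 8393 to 14840 FPKM in SJY, 2278 to 23290 FPKM in ALI and 202 to 267 FPKM in control. The highest ALI sum was that of ALI 1, and ALI 2 to 5 had 2278 to 7319 FPKM, below every SJY library. Their part in the rise of Cyp4f18 was not tested.

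Cyp7b1 (ENSRNOG00000009730) encodes oxysterol 7α-hydroxylase, which acts in bile acid synthesis and in making oxysterols that guide immune cells. It had 8.04, 7.53, 7.60, 7.25 and 8.27 FPKM in SJY, 18.2, 6.01, 6.44, 7.58 and 5.78 FPKM in ALI and 2.43, 1.06, 1.68, 1.64 and 1.62 FPKM in control. The treated groups lay wholly above control, and ALI 1 was the highest library. The log2 change in ALI was 1.76 ± 0.24 with ALI 1 (SE, adjusted p = 0.000189 by limma) and 1.48 ± 0.14 without it.

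Cyp1b1 (ENSRNOG00000040287), which oxidises polycyclic aromatic hydrocarbons and estradiol and is a known target of the aryl hydrocarbon receptor, had 9.60, 10.3, 11.6, 11.2 and 14.4 FPKM in SJY, 12.4, 11.3, 19.9, 12.3 and 10.8 FPKM in ALI and 4.26, 3.09, 5.82, 4.24 and 3.53 FPKM in control. Again no treated library overlapped a control, and ALI 3 was the highest. Its promoter window was the one of the 4 printed with GCGTG on both strands. The log2 change in ALI was 1.46 ± 0.18 (SE, adjusted p = 6.28e-05 by limma). Cyp1a1, the receptor's best known target, did not pass the test. It averaged 2.72 ± 2.25 FPKM in SJY, 5.84 ± 3.75 FPKM in ALI and 6.62 ± 5.03 FPKM in control (SD, n = 5 each), with values spread over 1.12 to 14.4 FPKM within control alone. Some markers of other cells also rose in ALI. In ALI 1, the highest library for Cyp7b1, the macrophage and fibroblast sums were the lowest of ALI. Of 7 tested macrophage markers 3 rose and 1 fell in ALI, against 8.02% and 9.56% of all tested genes. Their sums were 215 to 343 FPKM in SJY, 178 to 378 FPKM in ALI and 134 to 199 FPKM in control. Without ALI 1, 4 rose and 1 fell, against 9.10% and 7.87% of all tested genes. ALI 2 to 5 had macrophage sums of 251 to 378 FPKM, above every control. Of 7 smooth muscle and fibroblast markers 3 rose, against 8.02% of all tested genes. Their sums were 858 to 1194 FPKM in SJY, 450 to 1323 FPKM in ALI and 576 to 931 FPKM in control. The lowest ALI sum was that of ALI 1, and ALI 2 to 5 had 1156 to 1323 FPKM, above every control. What these cells contributed was not tested.

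Cyp26b1 (ENSRNOG00000015076), which clears retinoic acid, was decided by ALI 1. It had 24.8, 14.2, 11, 11.8 and 15.5 FPKM in SJY, 0.605, 8.69, 11.01, 26.2 and 23.1 FPKM in ALI and 3.37, 6.53, 6.02, 5.16 and 5.11 FPKM in control. ALI 1 was below all controls, while ALI 2 to 5 and all SJY libraries were above them. In ALI against control the log2 change was 0.76 ± 0.56 with ALI 1 (SE, adjusted p = 0.335 by limma) and 1.44 ± 0.29 without it (adjusted p = 0.00362).

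**Figure D4:**
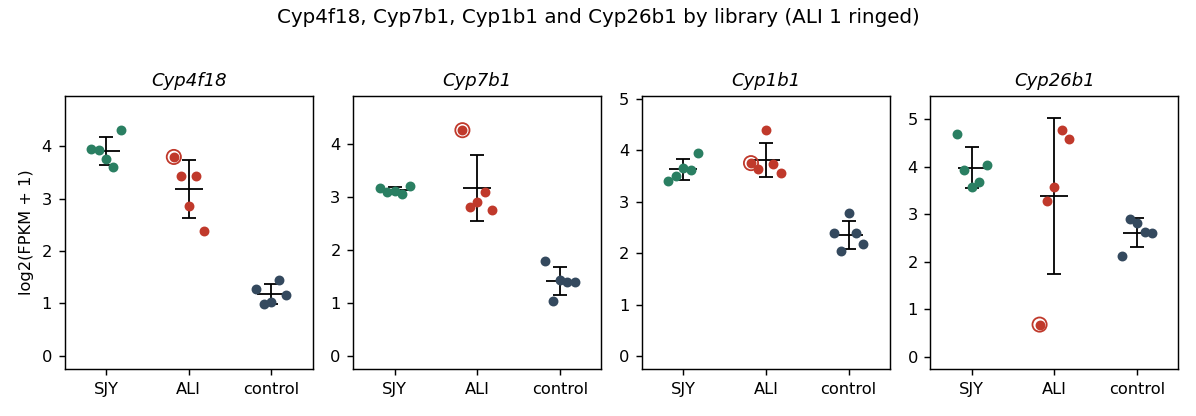
Each dot is a library, on a log2(FPKM + 1) axis that differs between panels, with SJY, ALI and control from left to right, black marks for the group mean and SD on that scale, and a ring around ALI 1. In Cyp4f18, Cyp7b1 and Cyp1b1 every SJY and ALI library lies above every control, and in Cyp26b1 ALI 1 lies at 0.605 FPKM, below all controls.

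The remaining sterol and orphan enzymes were not called in ALI. Cyp20a1 (ENSRNOG00000017631), whose substrate is unknown, was the steadiest at 22.3, 23.7, 22.3, 21.8 and 24.4 FPKM in SJY, 15.1, 22.4, 21.4, 24.6 and 20.5 FPKM in ALI and 28.0, 20.7, 19.5, 22.1 and 20.8 FPKM in control. Its groups overlapped, and the log2 change in ALI was −0.10 ± 0.13, and 0.01 ± 0.10 without ALI 1. Cyp27a1 (ENSRNOG00000017188), the mitochondrial sterol 27-hydroxylase, had 19.8, 22.5, 15.4, 21.5 and 18.1 FPKM in SJY, 4.28, 17.6, 11.6, 17.6 and 18.6 FPKM in ALI and 20.9, 28.9, 20.7, 17.1 and 21.5 FPKM in control. ALI 1 and ALI 3 were the lowest, and the test did not call it in ALI (adjusted p = 0.0841 by limma) except without ALI 5 (0.0485). Cyp39a1 (ENSRNOG00000010519), which hydroxylates 24-hydroxycholesterol, had 1.59, 0.435, 1.11, 1.38 and 0.766 FPKM in SJY, 0.0931, 0.788, 0.758, 0.871 and 1.14 FPKM in ALI and 1.52, 1.26, 1.65, 0.888 and 1.84 FPKM in control. Those groups overlapped as well. Among the other uncalled genes, Cyp4v3 averaged 35.7 FPKM in SJY, 36.8 FPKM in ALI and 34.8 FPKM in control, and the leukotriene-oxidising family member Cyp4f6 averaged 24.1, 21.0 and 29.5 FPKM. Cyp2d3, Cyp2j4, Cyp2j10 and Cyp4f17 averaged between 0.689 and 3.10 FPKM in every group and were not called.

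The comparison of SJY with control shares its control libraries with that of ALI with control. In SJY, 7 of the 27 genes fell (Cyp2f4, Cyp2a1, Cyp2e1, Cyp2s1, Cyp3a9, Cyp4b1 and Cyp2u1) and the 3 genes Cyp4f18, Cyp7b1 and Cyp1b1 rose. That is 25.9% and 11.1% of the P450 genes, against 18.1% and 14.6% of all tested genes, of which 32.6% were called in all. The share that rose was near the background. The groups did not overlap in 12 of the 27 genes, 8 below and 4 above control, against 27.7% of all tested genes (15.9% below and 11.8% above). Cyp4f18 had a log2 change of 2.73 ± 0.23 (SE, adjusted p = 9.55e-07 by limma), Cyp7b1 of 1.72 ± 0.24 and Cyp1b1 of 1.27 ± 0.18. The falls were led by Cyp2e1 (−2.45 ± 0.72, adjusted p = 0.018) and Cyp2f4 (−2.28 ± 0.59, adjusted p = 0.009), followed by Cyp2a1 (−1.69 ± 0.63), Cyp3a9 (−1.65 ± 0.29), Cyp2s1 (−1.42 ± 0.32), Cyp4b1 (−1.14 ± 0.17) and Cyp2u1 (−0.68 ± 0.20). Cyp2u1, a fatty acid hydroxylase, averaged 2.67 ± 0.603 FPKM in SJY and 4.85 ± 0.853 FPKM in control (SD, n = 5 each). The call of Cyp2a1 (adjusted p = 0.0492) was lost when any of 10 libraries was left out, namely SJY 1, 3, 5 or 6, ALI 2 or 4, or control 4, 6, 7 or 8, with an adjusted p of up to 0.132.

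The spread shared over all 3 groups was raised by ALI 1, which bears on SJY as well. Without it 11 P450 genes fell and 5 rose in SJY against control, or 40.7% and 18.5%, against 26.5% and 17.8% of all tested genes. The genes gained were Cyp2b1 (log2 change −0.81 ± 0.17 SE, adjusted p = 0.00197 by limma), Cyp2d4 (−0.89 ± 0.15), Cyp2b2 (−0.69 ± 0.26) and Cyp2c23 (−0.45 ± 0.15) among the falls, and Cyp26b1 (1.37 ± 0.28) and Cyp4f17 (0.51 ± 0.18) among the rises.

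The comparison of SJY with ALI asks whether the oral formula changed P450 expression in the LPS-treated lung. No P450 gene passed the test in either direction by limma. Of all 13457 genes, 0.00743% were called, which is 1 gene. At an unadjusted p under 0.05 there was 1 P450 gene of 27, Cyp4f18, against 11.8% of all genes. Cyp4f18 averaged 14.3 ± 2.90 FPKM in SJY and 8.63 ± 3.40 FPKM in ALI (SD, n = 5 each), with a log2 change of 0.73 ± 0.23 (SE, adjusted p = 0.253). The groups overlapped through ALI 1, and without that library the change was 0.88 ± 0.21 (adjusted p = 0.0515). Neutrophil markers moved with it. The median log2 change of the 8 in SJY against ALI was 1.0 with 0 called, and 1.33 without ALI 1 with 5 called higher by limma. Their part in the Cyp4f18 difference was not tested. In 0 of the 27 genes did the groups separate fully, against 3.23% of all genes. Both abundant genes averaged higher in SJY. Cyp4b1 had 140.3 ± 8.43 FPKM in SJY and 115 ± 34.9 FPKM in ALI, with a log2 difference of 0.33 ± 0.17 (adjusted p = 0.467). For Cyp2b1, with 156 ± 22.1 FPKM in SJY and 115 ± 68.1 FPKM in ALI, the log2 difference was 0.93 ± 0.57 (adjusted p = 0.554), and 0.17 ± 0.18 without ALI 1. Cyp2f4 differed by 0.50 ± 0.59, Cyp7b1 by −0.04 ± 0.24 and Cyp1b1 by −0.19 ± 0.18. Without ALI 1 the differences of these genes were 0.06 ± 0.58, 0.23 ± 0.14 and −0.20 ± 0.18. These standard errors leave room for differences in either direction for most genes, so a missed threshold does not show that the groups were alike. Leaving out ALI 1, 0.884% of all genes were called higher and 0.461% lower, and 0 P450 genes were called.

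The partners of the P450 enzymes were read from the same fit, with lists chosen for their role. Of 11 genes listed as electron carriers or binding partners, 2 fell and 0 rose in ALI, against 9.56% and 8.02% of all tested genes. Por, the reductase that serves P450 enzymes of the endoplasmic reticulum, averaged 87.3 FPKM in SJY, 87.5 FPKM in ALI and 148 FPKM in control. Its log2 change in ALI was −0.78 (adjusted p = 0.00267 by limma). Pgrmc1, a heme-binding P450 partner, fell by 0.67 (adjusted p = 0.0246). In SJY against control 1 of the 11 rose, Fdx2, and 1 fell, Por, against 14.6% and 18.1% of all tested genes. Of 13 genes of heme synthesis and breakdown, 1 fell and 1 rose in ALI, which is near the 9.56% and 8.02% of all tested genes. Alas1, the rate-limiting enzyme of heme synthesis, averaged 87.6 FPKM in SJY, 72.0 FPKM in ALI and 155 FPKM in control (log2 change in ALI −1.10, adjusted p = 0.00384), and Hmox1, which breaks heme down, averaged 98.3, 119 and 35.9 FPKM (1.23, adjusted p = 0.0417). ALI 1 had 353 FPKM of Hmox1, while ALI 2 to 5 had 75.6, 56.6, 58.3 and 50.4 FPKM, and all of these lay above the controls. Without ALI 1 the ALI mean was 60.2 FPKM and the log2 change 0.72 ± 0.16 (SE, adjusted p = 0.00587 by limma). In SJY against control 3 of the 13 rose (Hmox1, Blvra and Ppox) and 1 fell (Alas1), against 14.6% and 18.1% of all tested genes.

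Among 19 tested nuclear and dioxin receptors and their cofactors, 7 fell and 1 rose in ALI, against 9.56% and 8.02% of all tested genes. Without ALI 1, 5 fell and 1 rose, against 7.87% and 9.10% of all tested genes. The largest falls were of Pparg (log2 change −1.04, adjusted p = 0.00368 by limma), Srebf1 (−1.02, adjusted p = 0.0113) and Rarg (−0.67, adjusted p = 0.0334, and 0.0591 without ALI 1), and the sterol receptor Nr1h3 rose (0.55, adjusted p = 0.00695). The aryl hydrocarbon receptor Ahr averaged 33.5 FPKM in SJY, 34.3 FPKM in ALI and 37.3 FPKM in control and was not called, while Tiparp, another of its targets, fell by 0.63 in ALI (adjusted p = 0.0475). The pregnane receptor Nr1i2 averaged below 1 FPKM in each group. In SJY against control 8 of the 19 fell and 2 rose, against 18.1% and 14.6% of all tested genes, led by Rxra (−1.39), Srebf1 (−0.94) and Tiparp (−0.90) among the falls. Of 13 tested epoxide hydrolases and conjugating enzymes, which act on P450 products, 7 fell and 1 rose in ALI, against 9.56% and 8.02% of all tested genes, with Gsta4 (−1.51), Ephx1 (−1.22) and Gsta1 (−1.22) the largest falls and Ugt1a6 (0.81) the rise. In SJY against control 4 of the 13 fell and 1 rose, against 18.1% and 14.6% of all tested genes. Without ALI 1, 6 fell and 2 rose in SJY against control, against 26.5% and 17.8% of all tested genes. Of these 56 tested partner genes, 0 were called in SJY against ALI by limma, and without ALI 1 a gene each of the heme and receptor lists was called higher.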

How the data were processed

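Each group had 5 libraries, assigned by label. RNA was isolated with TRIzol and made into libraries with the NEBNext Ultra kit, per the labels' protocols. cutadapt, HISAT2, StringTie and the build Rnor_6.0 appear in the submitters' processing notes, and their versions and the strand setting are not given in the sources used here. The authors deposited FPKM, 1 column per library, with no scaling between libraries stated and no read numbers.

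FPKM values were taken as log2(FPKM + 1) for the 13457 genes of at least 1 FPKM in 5 or more libraries. limma 3.58.1 in R 4.3.3 (eBayes with its trend and robust options on) fitted the 3 groups together, two-sided, with Benjamini-Hochberg adjustment over all tested genes and calls at an adjusted p under 0.05. The test was first run on simulated data. Means and SDs are of FPKM, SEs are limma's. P-values set the differences between groups against the spread between these libraries.

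Members and lists were chosen with earlier results of these data known. Every tested P450 gene is named. Single libraries are given for called genes with a group mean of at least 5 FPKM, or for the highest gene of a family without one. Up to 3 called genes per direction are named from each partner list, others being added after their values were seen. Marker lists covered club, ciliated, type II, type I, endothelial, mesenchymal, neutrophil, macrophage and liver cells. Promoters came from RefSeq (GRCr8), matched by symbol.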

Additional observations from a re-analysis of the deposited data

Results flagged for a closer look

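In 81 groups of 5 libraries (27 genes in 3 groups), a single library lay far from the other 4 in 10, with a gap of more than 0.71 of the group's range on the log2(FPKM + 1) scale. Chance alone flags about 1 in 20 groups. ALI 1 was that library in 7 of the 10. It was low for Cyp2b1 (9.02 FPKM, others 97.0 to 174 FPKM), Cyp2d4 (0.423 FPKM, others 8.78 to 12.0 FPKM), Cyp2t1 (1.38 FPKM, others 7.13 to 12.1 FPKM), Cyp2u1 (1.67 FPKM, others 3.71 to 4.67 FPKM), Cyp4f6 (6.03 FPKM, others 24.1 to 25.4 FPKM) and Cyp4v3 (12.7 FPKM, others 34.3 to 49.1 FPKM), and high for Cyp7b1 (18.2 FPKM, others 5.78 to 7.58 FPKM). The same library had 37.7% of its summed FPKM in mitochondrial genes, and the part of this in its low P450 values was not tested.

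ALI 3 was high for Cyp1b1 within ALI (19.9 FPKM, others 10.8 to 12.4 FPKM). Control 4 was low for Cyp4b1 within control (240.5 FPKM, others 324 to 335 FPKM). SJY 5 was high for Cyp2b2 within SJY (0.978 FPKM, others 0.385 to 0.493 FPKM).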

How the results depend on the processing

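The 21 P450 calls against control kept their direction in all 457 alternative values, and 406 of these stayed past the threshold. Of the 21, 18 kept the call whichever single library was left out, and Cyp2b1 and Cyp46a1 in ALI and Cyp2a1 in SJY did not. Cyp2e1 in SJY was lost with a pseudocount of 0.1 FPKM (adjusted p = 0.0558) and without the filter (0.0507). Cyp2b1 in ALI and Cyp2a1 in SJY were lost under both settings as well. With the 2 groups alone, Cyp2b1 and Cyp46a1 in ALI were lost (adjusted p = 0.109 and 0.0656 by limma). Cyp2a1 in SJY was also lost without trend and robust settings and with a minimum mean of 5 FPKM.

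Counts of genes called by limma moved as follows. In ALI against control all genes went from 2366 to 1332 when the fit held the 2 groups alone, and ranged over 1556 to 2897 with single libraries left out, the lowest being without control 7 (1556) and control 5 (1564). P450 falls were 8 as reported, 5 with a minimum mean of 5 FPKM, which tests fewer genes, and 6 to 10 with libraries left out, and P450 rises 3 to 4. In SJY against control all genes ranged over 3359 to 5956 with libraries left out, P450 falls 6 to 11 and P450 rises 3 to 5, the highest being without ALI 1. P450 falls were 4 with a minimum mean of 5 FPKM, and the fit of 2 groups gave 11 falls and 5 rises. Median-of-ratios scaling gave 6 falls and 4 rises there, with Cyp26b1 gained and Cyp2a1 lost. In SJY against ALI the single call over all genes became 0 with median-of-ratios scaling, without trend and robust settings, with a pseudocount of 0.1 FPKM and with 2 groups alone, and 2 without the filter. It ranged over 0 to 181 with libraries left out, and P450 calls were 0 in every alternative run.

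With the replicate number as a block, calls over all genes dropped to 313 in ALI against control and 1142 in SJY against control, with 1 P450 fall (Cyp4b1) in each and the 3 rises unchanged in number. The deviations of libraries with the same number correlated between −0.389 and 0.302, so the number is not shown to pair them. The cause of these shifts was not tested. FPKM gives no read numbers, so genes near 1 FPKM carry an unknown counting error.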

Other observations

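A pair of P450 genes carry symbols outside the Cyp pattern. Tbxas1, which encodes thromboxane A synthase, averaged 22.8 FPKM in SJY, 20.6 FPKM in ALI and 12.5 FPKM in control, with a log2 change of 0.66 in ALI (adjusted p = 0.00862 by limma) and of 0.82 in SJY against control (adjusted p = 0.00117). Cyp51, the lanosterol demethylase of cholesterol synthesis, averaged 19.6 FPKM in SJY, 22.1 FPKM in ALI and 17.0 FPKM in control and was not called. Of 6 tested endothelial markers, 1 fell in ALI, against 9.56% of all tested genes, and 1 in SJY against control, against 18.1%. Without ALI 1, 3 fell in SJY against control, against 26.5% of all tested genes. Cldn5 was listed at 0 in all 15 libraries. Of 2 tested liver markers 0 were called in ALI, against 17.6% of all tested genes. Apoa2 rose in SJY against control, where 14.6% of all tested genes rose.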
